A study of Mus musculus with 4 samples.

Results

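The miR-30 family was read in small RNA from exosomes, the vesicles that cells release, of BV2 cells, an immortalized mouse microglial line. The members are both arms of the hairpins miR-30a to miR-30e, taken by name from the table of each library: mmu-miR-30a-5p, mmu-miR-30b-5p, mmu-miR-30c-5p, mmu-miR-30d-5p, mmu-miR-30e-5p, mmu-miR-30a-3p, mmu-miR-30b-3p, mmu-miR-30d-3p and mmu-miR-30e-3p. The prefix mmu, for mouse, is left out below. All 9 names were found among 603 listed miRNAs, 5 of them 5p arms and 4 of them 3p arms. The control group (NC) spent 2 h at 37 °C, and the HS group, labelled heatstroke, spent 2 h at 42 °C and was then returned to 37 °C for 12 h according to the labels. No time beyond the 2 h is labelled for the NC group, so heating and any difference in culture time cannot be told apart. The study's text gives the harvest time after heating in differing ways. Both groups were wild-type cells with no other treatment named, and each group had 2 libraries. Nothing in the labels says that the 2 libraries of a group came from separate cultures, so the p-values measure the spread between these libraries, which may be technical.

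MiRNAs are short RNAs cut from the arms of a hairpin precursor. The arm at the 5′ end gives the 5p miRNA and the arm at the 3′ end gives the 3p miRNA. An arm loaded into an Argonaute protein guides it to messenger RNAs, which are recognized mainly through the seed, bases 2 to 8 of the miRNA. The 5p arms of the miR-30 family share a seed and are usually the more abundant arm. The family is expressed in many tissues, and Snai1, a driver of the epithelial to mesenchymal transition, and Becn1, an autophagy gene, are known targets of members. In the mouse the family is encoded in pairs of neighbouring hairpins.

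Mature sequences from the RefSeq table on GRCm38.p6 were matched for 5 of the 9 members. They are shown because the same arms of Mir30a and Mir30e, whose levels are compared below, are nearly the same in sequence. Capitals mark the seed.
miR-30a-5p: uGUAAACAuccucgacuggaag
miR-30e-5p: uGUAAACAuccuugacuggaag
miR-30c-5p: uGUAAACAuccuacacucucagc
miR-30a-3p: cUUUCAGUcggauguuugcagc
miR-30e-3p: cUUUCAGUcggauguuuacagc
MiR-30d-5p, miR-30b-5p, miR-30d-3p and miR-30b-3p are given by name. Counted from 1 at the 5′ end, miR-30a-5p and miR-30e-5p differ by the single substitution C13U, from miR-30a-5p to miR-30e-5p. Their 3p arms differ by G18A, in the same order. MiR-30c-5p has the first 12 bases of miR-30a-5p and then departs from it. How many mismatches were allowed in counting is not given in the sources used here, so reads of such close names could have been split between them.

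MiR-30a-5p lies at chr1:23272274-23272295 and miR-30a-3p at chr1:23272315-23272336, both on the plus strand. The second hairpin on that chromosome, Mir30c-2, begins 19361 bases after the end of Mir30a and overlaps an exon of the long noncoding RNA Gm27028. MiR-30e-5p at chr4:120772660-120772681 and miR-30e-3p at chr4:120772618-120772639 are on the minus strand. Mir30e and Mir30c-1 are 2983 bases apart, and GENCODE M21 places both in introns of Nfyc, which encodes a subunit of the transcription factor NF-Y and lies on the same strand. MiR-30c-5p comes from Mir30c-1 and Mir30c-2 with the same sequence, so its reads cannot be assigned to either hairpin.

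Listed miRNAs took 96516 and 121503 reads in the NC libraries (replicate 1 first, here and below) and 42091 and 113966 reads in the HS libraries. The deposited values, here called normalized counts, were read counts scaled by 1 factor per library, and whole reads were recovered from them. A name with 0 reads could still hold up to 3 reads, which is 2.51 and 2.03 normalized counts in the NC libraries and 7.25 and 1.99 in the HS libraries. Because PCR copies are not independent molecules, these limits and all intervals for reads reflect counting error alone. HS replicate 1 stood apart from the other libraries, with 228 names detected against 420 to 444, so the differences between the groups are given with and without it. Among the markers of the labelled cell type, the myeloid list had 5 or 6 of its 6 names detected in each library. Its summed share was 6.76% and 2.96% under NC and 1.68% and 3.80% under HS, with miR-223-3p at 5 and 2 reads and at 3 and 0 reads. Most of the sum in NC replicate 1 was miR-21a-5p, and without it the shares were 1.93% and 2.04% under NC and 1.41% and 2.72% under HS. Most of what then remained was miR-146a-5p, with 1457 and 2001 reads under NC and 533 and 2662 under HS. MiR-142a-3p had 17 and 3 reads, then 0 and 3, and miR-142a-5p had 205 and 281, then 33 and 248. The stromal and epithelial list of 10 names held 4.01% and 1.71% of the NC reads, 0.0214% of the reads of HS replicate 1, where 6 of the 10 were at 0, and 1.21% of those of HS replicate 2. Serum and red cell miRNAs held 0.0953% and 0.234% under NC and 0.325% and 0.247% under HS. Except in NC replicate 1, most of this was miR-122-5p, with 27 and 175 reads under NC and 96 and 206 under HS. The red cell miR-451a had 45 and 73 reads, then 23 and 51. The neuronal list, with 2 of its 3 names listed, held 2.73% and 3.68% and then 3.69% and 2.80%, nearly all of it miR-128-3p. In such a pool of vesicles, fewer vesicles of a kind and less miRNA per vesicle cannot be told apart.

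As a whole, the 5p arms of the family differed little between the groups. They held 4.01% and 5.01% of the listed reads under NC and 3.51% and 5.10% under HS. Their summed level was 3238 and 4123 normalized counts under NC and 3576 and 3853 under HS. The HS values thus lay between the NC values. The group means were 3681 ± 626 in the control group and 3715 ± 196 in the HS group (SD, n = 2). The difference of the mean log2 levels, HS minus NC, was 0.02, against 0.35 between the 2 NC libraries, and without HS replicate 1 it was 0.08. Its sign was negative without NC replicate 1, without HS replicate 2 and with other scalings of the libraries, so no direction can be read from it.

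MiR-30d-5p made up most of the family. It was counted in 2921 and 5217 reads under NC and 1409 and 4815 reads under HS, and ranked 8, 4, 8 and 4 among the 603 listed names by reads. In normalized counts these were 2442, 3536, 3407 and 3195, and both HS values fell inside the range of the NC values. The log2 fold change from limma came to 0.17 (SE 0.73, adjusted p = 0.940), and without HS replicate 1 it was 0.12. It turned to -0.10 without NC replicate 1. Of the 5p reads of the family, miR-30d-5p held 75.4% (95% Wilson interval 74.0% to 76.7%) and 85.8% (84.9% to 86.6%) in the NC libraries. Its shares in the HS libraries were 95.3% (94.1% to 96.2%) and 82.9% (81.9% to 83.9%).

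**Figure D1:**
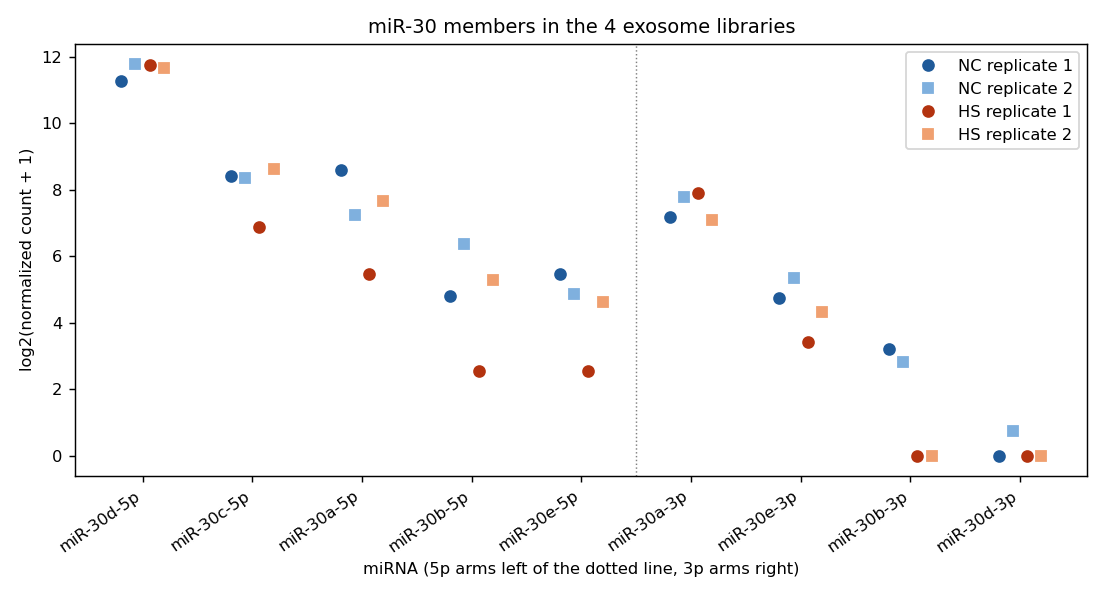
Level of each of the 9 members in each library, as log2(normalized count + 1), with the 5p arms left of the dotted line and the 3p arms right of it. Each point is 1 library (blue NC, red and orange HS, circles replicate 1, squares replicate 2). MiR-30d-5p sat together in the 4 libraries, while miR-30c-5p, miR-30a-5p, miR-30b-5p and miR-30e-5p were lowest in HS replicate 1.

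The other 4 arms with the 5p seed were scarce in HS replicate 1, which was not so in HS replicate 2. Together they came to 797 and 587 normalized counts under NC and 169 and 658 under HS. HS replicate 2 lay between the NC libraries and HS replicate 1 lay below all the others. The difference of the mean log2 levels was -1.03 with all libraries and -0.05 without HS replicate 1. Against the NC mean log2 level, HS replicate 1 differed by -1.51 for miR-30c-5p and -2.45 for miR-30a-5p. For miR-30b-5p it differed by -3.04 and for miR-30e-5p by -2.63. Low levels were common in this library. Over all 376 tested miRNAs the median of this difference was -1.38, and 38.0% lay more than 4-fold below the NC mean. The stromal and epithelial markers and the depth of the library were also lowest in HS replicate 1, and their part in these values was not tested.

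MiR-30c-5p, which comes from both clusters whose sequences are shown, had 406 and 480 reads under NC and 48 and 594 under HS. In normalized counts it stood at 339 and 325 under NC and at 116 and 394 under HS. The NC libraries agreed within counting error, with a fold of 0.959 between them (95% exact interval 0.838 to 1.10), whereas HS replicate 2 was 3.40-fold above HS replicate 1 (2.53 to 4.66). From the size factors, the levels of the other libraries correspond to 135 to 163 reads at the depth of HS replicate 1. The log2 fold change from limma came to -0.63 (SE 0.93, adjusted p = 0.783), and without HS replicate 1 it was 0.25.

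MiR-30a-5p was counted in 463 and 223 reads under NC and 18 and 305 under HS. In normalized counts these were 387 and 151, then 43.5 and 202. Here the NC libraries themselves were apart, with NC replicate 2 at 0.391 of NC replicate 1 (0.331 to 0.459), and HS replicate 2 lay between them. HS replicate 2 was 4.65-fold above HS replicate 1 (2.89 to 7.95). The log2 fold change from limma came to -1.35 (SE 1.13, adjusted p = 0.621), and -0.26 without HS replicate 1.

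MiR-30b-5p had 32 and 121 reads under NC and 2 and 57 under HS, or 26.7, 82.0, 4.84 and 37.8 normalized counts. NC replicate 2 was 3.07-fold above NC replicate 1 (2.06 to 4.68), the opposite order to miR-30a-5p. The 2 reads in HS replicate 1 left its level uncertain, with a fold of 7.82 between the HS libraries (2.07 to 66.1). Its log2 fold change from limma came to -1.67 (SE 1.29, adjusted p = 0.621), and -0.31 without HS replicate 1.

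MiR-30e-5p, the rarest of the 5p arms over the 4 libraries, had 52 and 42 reads under NC and 2 and 36 under HS. These were 43.5 and 28.5 normalized counts and then 4.84 and 23.9, so both HS libraries lay below both NC libraries. The same held for 21.0% of all tested miRNAs, with a 0 set to its limit of 3 reads. The 2 HS libraries were 4.94-fold apart (1.27 to 42.3), and HS replicate 2 was close to NC replicate 2. The log2 fold change from limma came to -1.59 (SE 1.03, adjusted p = 0.621), and -0.54 without HS replicate 1.

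The order of the 5p arms by reads put miR-30d-5p first in every library, at least 6.31-fold above the next member. MiR-30c-5p and miR-30a-5p came next, with miR-30a-5p ahead in NC replicate 1 and miR-30c-5p ahead in the other 3 libraries, and their ranges over the libraries overlapped. MiR-30b-5p and miR-30e-5p came last, and their ranges overlapped as well. Against miR-30d-5p in the same library, a measure that does not depend on the size factors, miR-30a-5p stood at 15.9% and 4.27% under NC and at 1.28% and 6.33% in the HS libraries. MiR-30c-5p stood at 13.9% and 9.20%, then 3.41% and 12.3%. The value of HS replicate 2 was inside the NC range for both, and that of HS replicate 1 was below it. To turn the make-up of the 5p reads of one library into that of another, 11.5% of them would have to be moved to another member between the NC libraries and 12.3% between the HS libraries. For HS replicate 2 the value was 7.67% against NC replicate 1 and 3.92% against NC replicate 2. For HS replicate 1 it was 19.9% and 9.50%, so the widest gap of the 6 pairs was that between NC replicate 1 and HS replicate 1.

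**Figure D2:**
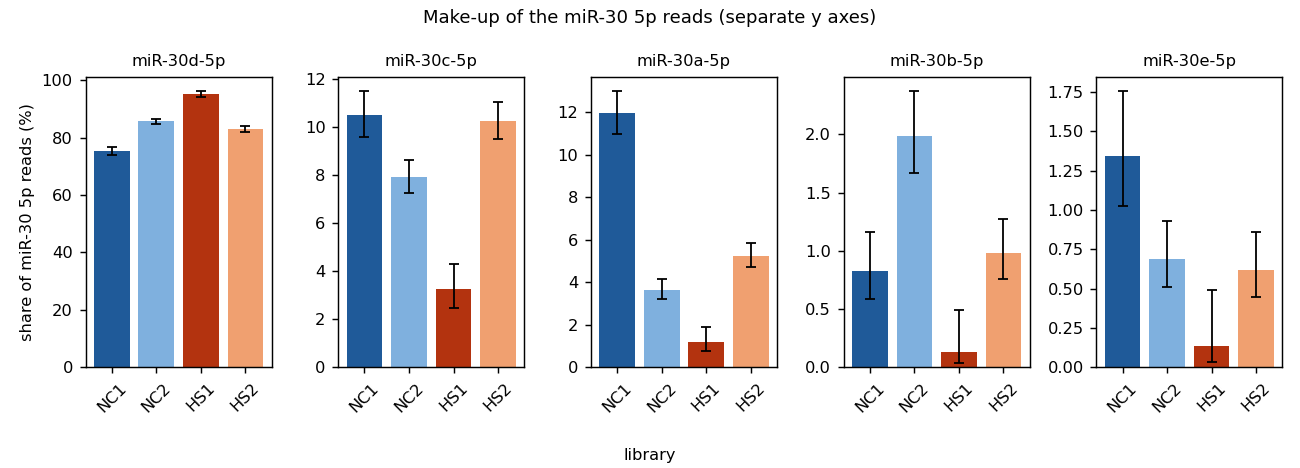
Share of the miR-30 5p reads of each library held by each of the 5 members, in percent, with 95% Wilson intervals as error bars and a separate y axis from 0 in each panel. The share of miR-30d-5p was 95.3% in HS replicate 1 and 75.4% to 85.8% in the other libraries, and the shares of the other 4 members were lowest in HS replicate 1.

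The 3p arms, often called passenger strands although they can act as guides, were fewer. Summed, they held 0.221% and 0.321% of the listed reads under NC and 0.245% and 0.203% under HS. The summed level was 178 and 264 normalized counts under NC and 249 and 153 under HS, so the groups overlapped. The difference of the mean log2 levels was -0.15 with all libraries and -0.50 without HS replicate 1. It was positive without NC replicate 2 and without HS replicate 2.

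MiR-30a-3p made up most of the 3p reads. It had 172 and 322 reads under NC and 99 and 202 under HS. In normalized counts these were 144 and 218, then 239 and 134, so HS replicate 1 was the highest of the 4 libraries and HS replicate 2 the lowest. The 99 reads in HS replicate 1 compare with 55.4 to 90.3 reads that the levels of the other libraries would have given there. The log2 fold change from limma came to 0.02 (SE 0.79, adjusted p = 0.998), and -0.40 without HS replicate 1.

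MiR-30e-3p had 31 and 58 reads under NC and 4 and 29 under HS. Its normalized counts were 25.9 and 39.3 under NC and 9.67 and 19.2 under HS, and the groups did not overlap. The HS libraries differed from each other 1.99-fold, within counting error (0.699 to 7.79). The log2 fold change from limma came to -1.16 (SE 0.80, adjusted p = 0.621), and -0.70 without HS replicate 1.

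MiR-30b-3p had 10 and 9 reads in the NC libraries and 0 reads in both HS libraries, or 8.36 and 6.10 normalized counts against 0. With each HS library set to its limit of 3 reads, the NC mean as counted exceeded the HS mean 1.56-fold. Counting error in the 10 and 9 NC reads is left out, so this bound covers the 0 counts of the HS libraries alone. This bound was 3.63-fold without HS replicate 1, 1.32-fold without NC replicate 1 and 1.81-fold without NC replicate 2. HS replicate 1 alone gives no bound, since the NC levels correspond to only 2.52 to 3.46 reads at its depth. The fitted log2 fold change from limma came to -3.03 (SE 0.72, unadjusted p = 0.0118, adjusted p = 0.516), and without HS replicate 1 it was also -3.03 (adjusted p = 0.547). With 0 reads in the HS group this value is set by the pseudocount and is no measure of size. It ran from -6.47 to -1.28 over the other settings, and over all of them the adjusted p ranged from 0.0998 to 0.814. MiR-30d-3p had 1 read in NC replicate 2 and 0 in the other libraries, so its level could not be measured at this depth.

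The 2 arms of Mir30a moved apart between libraries. The 3p arm held 27.1% of the reads of the hairpin in NC replicate 1 (95% Wilson interval 23.8% to 30.7%) and 59.1% in NC replicate 2 (54.9% to 63.1%). Its shares in the HS libraries were 84.6% (77.0% to 90.0%) and 39.8% (35.7% to 44.2%). The intervals of the 4 libraries did not overlap, and the leading arm was 5p in NC replicate 1 and HS replicate 2 and 3p in NC replicate 2 and HS replicate 1. The log2 ratio of 3p to 5p, HS minus NC, was 1.37 (exact permutation p = 0.667, two-sided, n = 2 a group), and -0.14 without HS replicate 1. The NC libraries alone were 1.95 apart on this scale and the HS libraries 3.02, so the difference between the groups was smaller than the spread inside them.

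Mir30e, whose arms are each 1 base from those of Mir30a, was read less deeply. Its 3p share was 37.3% (27.7% to 48.1%) and 58.0% (48.2% to 67.2%) in the NC libraries, 66.7% (30.0% to 90.3%) on 6 reads in HS replicate 1, too few to place it, and 44.6% (33.2% to 56.7%) in HS replicate 2. As for Mir30a, the share was lower in NC replicate 1 than in NC replicate 2, while that of HS replicate 2 overlapped both within its interval. The log2 ratio differed by 0.42 between the groups (exact permutation p = 0.667) and by -0.16 without HS replicate 1. Whether reads of the 2 hairpins were exchanged in counting was not tested.

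The hairpins of miR-30b and miR-30d stayed with their 5p arm in every library. The 3p share of miR-30b was 23.8% (13.5% to 38.5%) and 6.92% (3.68% to 12.6%) in the NC libraries. In HS replicate 1 only 2 reads were counted on the hairpin, both on the 5p arm, and in HS replicate 2 the 3p arm had 0 of 57 reads (0% to 6.31%). For miR-30d the 3p arm had 1 of 5218 reads in NC replicate 2 and 0 of 2921, 1409 and 4815 reads in the others, which allows at most 0.272% by the Wilson interval. No ratio of the arms is compared between the groups for these hairpins, since their 3p arms had 0 reads in both HS libraries. The 3p names of the miR-30c hairpins were also rare, with 1 read of miR-30c-1-3p in NC replicate 1, and 6 reads of miR-30c-2-3p in NC replicate 2 and 1 in HS replicate 2. Over the 4 hairpins with both arms among the members, the 3p share was 5.79% and 6.51% under NC and 6.71% and 4.24% under HS. The log2 ratio of the summed arms, HS minus NC, was -0.21, or -0.56 without HS replicate 1, and it was positive without HS replicate 2. Its 3p reads were mostly miR-30a-3p and its 5p reads mostly miR-30d-5p, so it is not the arm ratio of any single hairpin. Taken alone, miR-30a and miR-30e gave 1.37 and 0.42 with all libraries, and -0.14 and -0.16 without HS replicate 1.

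**Figure D3:**
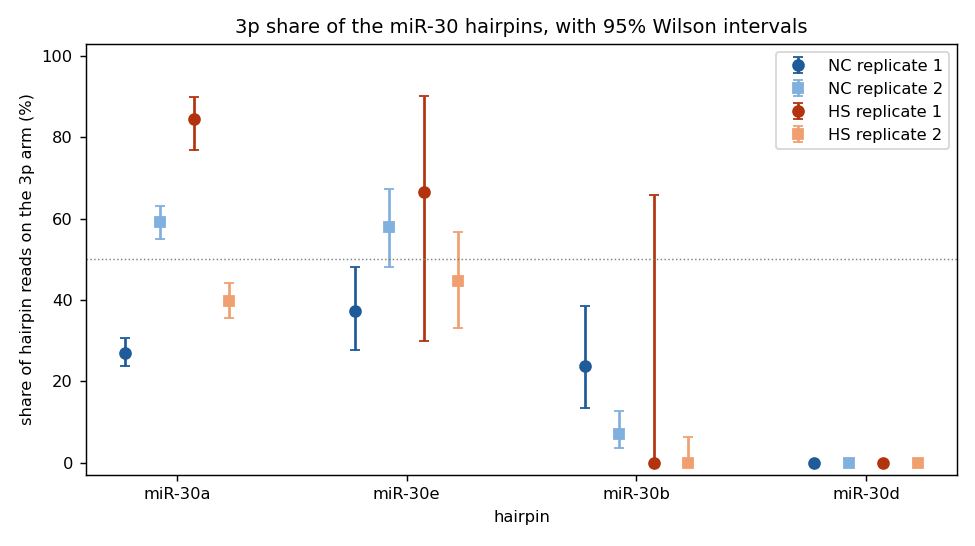
Share of the reads of each hairpin on its 3p arm, in percent, by library, with 95% Wilson intervals. The dotted line marks 50%. The 4 values of miR-30a spread from 27.1% to 84.6%, those of miR-30d lay at or near 0, and the wide intervals of miR-30e and miR-30b in HS replicate 1 rest on 6 and 2 reads.

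A shift between arms was not particular to Mir30a. Among 72 hairpins with both arms listed and at least 100 reads over the libraries, miR-30a ranked 27 by the range of its log2 ratio, with a range of 3.86. MiR-30b ranked 30 with 3.71, a range that ends at HS replicate 2, where its 3p arm had 0 reads. MiR-30e ranked 62 with 1.60, a range that ends at HS replicate 1, where the hairpin had 6 reads. MiR-30d ranked 71 with 0.69, a range largely set by the pseudocount, since its 3p arm had 1 read over the libraries. The median range of the 68 hairpins outside the family was 3.23. The leading arm changed between libraries in 8 of these 68 (11.8%), and in miR-30a and miR-30e of the 4 miR-30 hairpins. Many of the hairpins ranked above miR-30a had few reads on the minor arm. Among the 15 hairpins with at least 100 reads on the minor arm, a limit set after the values were seen, miR-30a ranked 6 and miR-30e ranked 12. In this set the leading arm also changed in miR-669a, miR-467a, miR-199a, miR-23b and miR-877, and not in the rest outside the family. Across the 68 the median difference between the HS libraries was 1.74 in size, and that between the NC libraries was 0.78, against 3.02 and 1.95 for miR-30a.

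**Figure D4:**
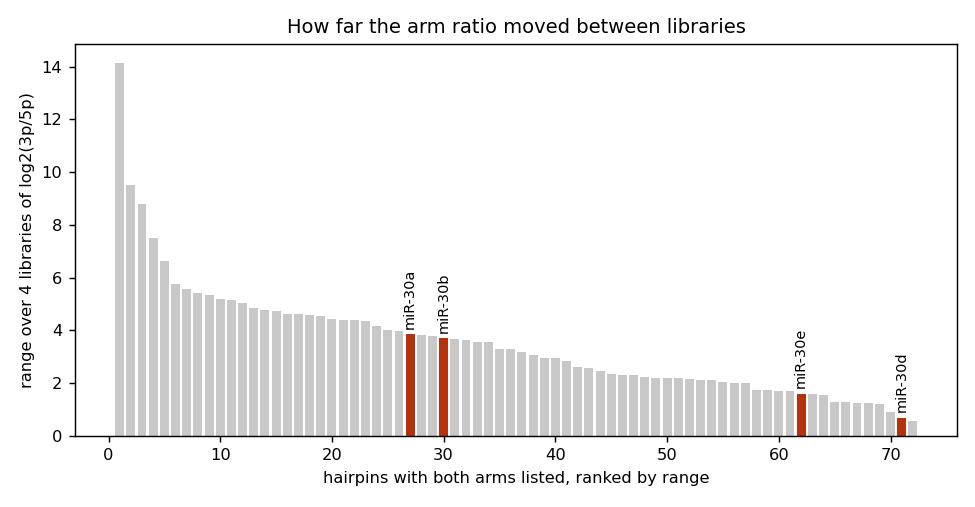
Range over the 4 libraries of log2(3p/5p), computed on normalized counts plus 1, for the 72 hairpins with both arms listed, ranked from widest to narrowest. Red bars are the miR-30 hairpins, of which miR-30a ranked 27 and miR-30d ranked 71. The 3p arm of miR-30d had 1 read over the libraries, so its range is largely set by the pseudocount.

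Tested across all names, 8 of the 9 members passed the minimum of 10 reads summed over the libraries, miR-30d-3p being left out. In limma 6 of the 8 had a log2 fold change below 0 and 2 above, and 65.4% of all 376 tested miRNAs were below 0. The median of the 8 was -1.26, or -0.90 with miR-30b-3p at its bound, against -0.65 over all tested miRNAs. The bound was set for this member alone and not for other names at 0, so -0.90 and -0.65 are unlike measures. Without HS replicate 1 the medians were -0.35, with or without the bound, and -0.20. Under the study's criterion of a change over 2-fold with an unadjusted p under 0.05, 1 of the 8 was lower in the HS group, miR-30b-3p, and 0 were higher. Over all tested miRNAs 6.65% met the criterion as lower and 1.6% as higher. MiR-30b-3p passed the minimum through its NC reads alone, and its fitted change is that set by the pseudocount. With adjusted p-values 0 of the 8 passed 0.05 in limma, in edgeR's quasi-likelihood test or in DESeq2's Wald test, as did 0.0% of all tested miRNAs in each of the 3, and 1 of the 8 had an unadjusted p under 0.05 in limma, against 8.24% of all tested miRNAs. On the recovered reads 0 of the 8 met the criterion with edgeR or DESeq2, where 5.59% and 7.71% of all tested miRNAs met it in either direction. With HS replicate 1 as the HS group alone, where the NC pair alone gives the spread and the lone library is assumed to vary likewise, 3 of the 8 met it as lower, against 26.4% of all miRNAs tested in that fit. They were miR-30c-5p, miR-30e-5p and miR-30b-3p, the last on a count of 0 in a library that gives no bound for it.

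With a library at 0 set to its limit of 3 reads, the groups did not overlap for 2 of the 8, miR-30e-5p and miR-30e-3p, each lower in the HS libraries. Over all tested miRNAs 21.0% were lower in this way and 12.2% were higher. MiR-30b-3p was not among them, since its limit in HS replicate 1, 7.25 normalized counts, exceeds the 6.10 of NC replicate 2. Without HS replicate 1, 4 of the 8 lay below both NC libraries, miR-30e-5p, miR-30e-3p, miR-30a-3p and miR-30b-3p, against 37.5% of all tested miRNAs, and 1 of the 8 lay above both, miR-30c-5p, against 25.3%. The median size of the log2 difference between the HS libraries was 1.34 for the 8 members and 1.58 over all tested miRNAs, and between the NC libraries it was 0.59 and 0.70.

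**Figure D5:**
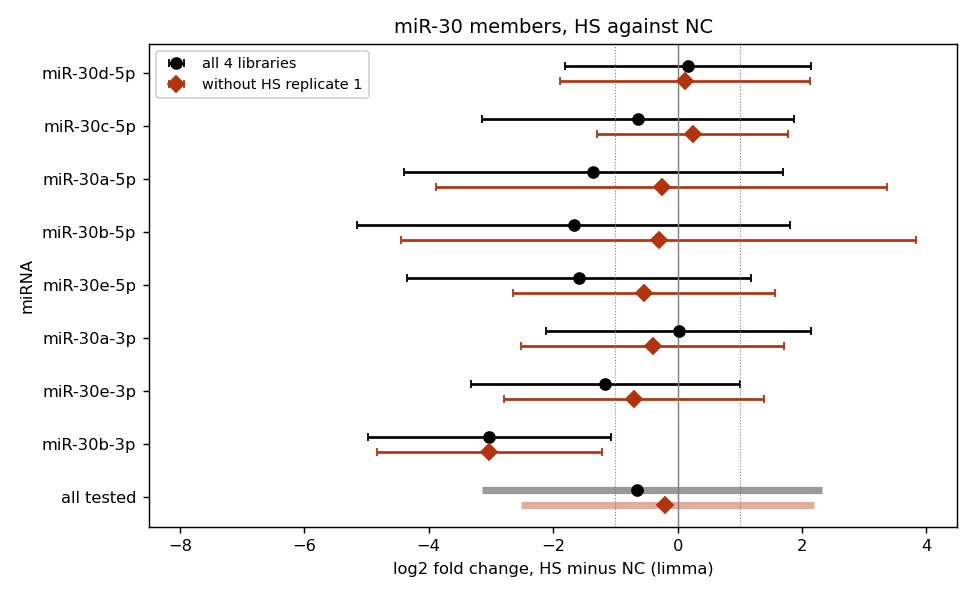
Log2 fold change, HS minus NC, of the 8 tested members from limma with 95% confidence intervals, with all 4 libraries (black circles) and without HS replicate 1 (red diamonds). The lowest row gives the median and, as a bar, the 5th to 95th percentile of all tested miRNAs, and the dotted lines mark a 2-fold change. The intervals of 7 members cross 0 in both fits, and that of miR-30b-3p, fitted on 0 reads in the HS group, lies below 0.

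Among other abundant families set beside the 5p arms of miR-30, the let-7 and miR-98 family held 19.4% to 23.5% of the listed reads, with a difference of the mean log2 levels of 0.14, or -0.12 without HS replicate 1. MiR-26a-5p and miR-26b-5p together held 3.79% and 1.93% under NC and 0.204% and 1.37% under HS. Their difference was -2.24, or -1.09 without HS replicate 1. Whether these differences are unlike that of the miR-30 5p arms was not tested.

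The miRNAs most like the summed 5p arms over the 4 libraries were sought among 142 others with at least 100 reads, by the root mean square difference of their centred log2 levels. They were miR-222-3p (0.10), let-7j (0.11), miR-99a-5p (0.15), miR-25-3p (0.17) and miR-146a-5p (0.17). MiR-222-3p, for example, had 1539 and 2100 normalized counts in the NC libraries and 2067 and 2019 in the HS libraries. MiR-30d-5p was at 0.12 from the sum it dominates and miR-30a-3p at 0.34, whereas miR-30c-5p was at 0.68, miR-30e-5p at 1.12, miR-30a-5p at 1.17 and miR-30b-5p at 1.33. These distances describe 4 libraries and carry no test.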

How the data were processed

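Exosomal small RNA from 2 NC and 2 HS libraries of BV2 cells was used, grouped by the sample titles. By the study's methods, the authors trimmed adapters, dropped short or low-quality reads and used bowtie for mapping. Versions, genome build and mismatches are not given in the sources used here. The deposited signal values, headed RPKM, are read counts scaled by 1 factor per library, since 100% of values above 0 were whole multiples of the smallest (tolerance 0.001). The factors were those of DESeq2's median-of-ratios method. Reads were recovered by that division.

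HS was tested against NC in limma 3.58.1 (R 4.3.3) on log2(normalized count + 1), over 376 names with at least 10 reads in all, with Benjamini-Hochberg adjustment. This scale understates changes of low names. The smallest p of an exact permutation test, 2 libraries against 2, is 0.333. DESeq2 1.42.0, edgeR 4.0.16, other scalings, a pseudocount of 5, no read minimum and each library left out were tried. The fits were also run on simulated counts with known changes and a spread shared by all libraries. That run does not test how they behave with a library as unlike the others as HS replicate 1. Intervals came from scipy 1.17.1.

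Named miRNAs are the members, other miR-30 names, the 5 of most similar pattern, and some of the comparison families and marker lists. The members and lists were chosen with earlier results of these data known.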

Additional observations from a re-analysis of the deposited data

How the results depend on the processing

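The number of members that met the criterion was 1 in limma. It was 0 with a pseudocount of 5, with DESeq2 and with edgeR, and ran from 0 to 3 as each library was left out. It was 0 without NC replicate 1, where miR-30b-3p had too few reads to be tested, and 3 without HS replicate 2, where miR-30c-5p and miR-30e-5p joined it and the NC pair alone gave the spread. The log2 difference of the summed 5p arms, 0.02, was -0.035 with TMM scaling and -0.083 when scaled by the total of listed reads, and ran from -0.15 to 0.20 with a library left out. That of the summed 3p arms ran from -0.50 to 0.20 and that of the 3p to 5p ratio of the summed arms from -0.56 to 0.14. The cause was not tested.

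MiR-30c-5p ran from -1.51 to 0.25, miR-30d-5p from -0.10 to 0.43 and miR-30a-3p from -0.40 to 0.43 with a library left out. MiR-30a-3p was -0.042 with TMM scaling and -0.090 when scaled by that total, where the median of all tested miRNAs moved from -0.65 to -0.93. With the replicate number as a block 1 member met the criterion, as without it. The numbers were not treated as pairs, and same-numbered libraries did not deviate together (correlation of deviations over miRNAs of -0.0973). With 2 libraries a group and HS replicate 1 unlike the others, this value cannot show that pairing is absent. The counts in HS replicate 1, the shallowest library, limit what can be said of miR-30b, miR-30e and all 3p arms but that of miR-30a.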
